A study of Mus musculus with 6 samples.

Results

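Capped hairpins and mirtrons are miRNA precursors that are made without Drosha, the nuclear enzyme that cuts most miRNA hairpins out of longer transcripts. Their members were chosen by name from the deposited table: miR-320-3p, miR-484, miR-877-5p, miR-877-3p, miR-1224-5p and miR-702-3p, 6 names in all. Of these, 4 matched a row among the 1251 miRNA arms of the table, while miR-877-5p and miR-1224-5p were not analysed here. MiR-320-3p and miR-484 were above the floor of the table in all 6 libraries and were both higher in brown fat. MiR-877-3p was above it in 1 library, and miR-702-3p was listed at the floor in all 6. The direction of miR-484 depended on the setting. With each library's trend on GC content (the share of bases G and C) removed, its log2 difference was -0.46, lower in brown fat. That setting was not run for miR-320-3p.

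The libraries came from C57BL/6J mice, an inbred laboratory strain, that were 5 to 6 weeks old when feeding began. All of them were then fed a high-fat diet for 11 weeks. Fat made up 45% of the energy, protein 20% and carbohydrate 35%, and the diet held 6.75% of the fish-oil fatty acid EPA (eicosapentaenoic acid). The BF-EPA group is brown fat from between the shoulder blades, a depot that burns fuel for heat (3 libraries, BF-EPA-3, BF-EPA-4 and BF-EPA-5). The SUB-EPA group is inguinal subcutaneous fat, a white depot (3 libraries, SUB-EPA-1, SUB-EPA-3 and SUB-EPA-8). The question of the series is what EPA does to miRNAs of fat tissue. Since both groups used here received EPA, the comparison is between the tissues and says nothing of the diet. Whether a mouse gave both tissues is not in the labels, and p-values measure only the spread between these samples.

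In the usual route, Drosha with its partner DGCR8 releases a hairpin in the nucleus and Dicer trims it to a duplex in the cytoplasm. A capped hairpin skips the first cut because RNA polymerase II starts, and stops, at the ends of the hairpin itself, which keeps the cap of the transcript; miR-320 is the best known case, and miR-484 was also found to persist in cells without DGCR8. A mirtron is a short intron that the spliceosome cuts out and that folds into a hairpin after debranching, so splicing takes the place of Drosha. MiR-320 has been studied in insulin-resistant adipocytes and miR-484 as a repressor of the mitochondrial fission factor Fis1.

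The mature sequences of the members with a row are shown because the letters set the seed by which each miRNA recognises its targets and the GC content used below. They are from RefSeq (GRCm38.p6), written 5′ to 3′, with the seed (bases 2 to 8) in capitals. None was printed for miR-320-3p.
miR-484: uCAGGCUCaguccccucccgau
miR-877-3p: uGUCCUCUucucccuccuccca
miR-702-3p: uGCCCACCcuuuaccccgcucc
The 3 seeds differ, and 0 other rows of the table with a mature sequence share any of them. All 3 are 22 nt long, and their GC contents are 63.6% for miR-484, 59.1% for miR-877-3p and 68.2% for miR-702-3p, beside a median of 50% over the 229 tested miRNAs with a mature sequence. The mature miR-484 covers bases 5 to 26 of its annotated hairpin of 67 nt and so lies on the 5′ side.

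The positions of the hairpins differ in kind (GRCm38, the assembly also called mm10). The hairpin of miR-320 lies on chromosome 14 at 70443510 to 70443591, plus strand, outside any other annotated gene and within 2 kb of Polr3d, a subunit gene of RNA polymerase III on the opposite strand. That of miR-484 lies on chromosome 16 at 14159626 to 14159692, plus strand, over Marf1 on the opposite strand. It touches an untranslated exon and an intron in the annotated transcripts of that gene. The hairpin of miR-877 (chromosome 17, 35960730 to 35960814, minus strand) fills an intron of Abcf1, which encodes a translation factor, and that of miR-1224 (chromosome 16, 20604452 to 20604536, plus strand) fills an intron of Vwa5b2. Both are 85 nt long and differ from the ends of their introns by 0 nt on either side in GENCODE M21. The annotated hairpin of miR-702 (chromosome 5, 136991433 to 136991541, plus strand) begins 9 nt before the start of an intron of Plod3, a collagen-modifying enzyme gene, and stops 2 nt before its end.

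The mirtron layout is visible in the hairpins of miR-877 and of miR-1981, whose 3p arm was the only one of the mirtron arms looked up here to be above the floor in every library. Both are RefSeq sequences with the annotated mature arms in capitals. Each starts with the GU and ends with the AG of a spliced intron.
mir-877: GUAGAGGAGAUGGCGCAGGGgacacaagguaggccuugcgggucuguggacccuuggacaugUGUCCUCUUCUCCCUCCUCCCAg
mir-1981: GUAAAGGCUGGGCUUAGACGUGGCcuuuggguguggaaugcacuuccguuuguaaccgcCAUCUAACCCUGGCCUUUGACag

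The values are log2 normalized abundances with a floor at 3.32, and nearly the same distribution was given to each library, so the read depth behind a value is unknown. Brown fat markers (miR-193b-3p, miR-365-3p, miR-378a-3p and miR-455-3p, 4 of 4 called higher in brown fat) made up 19.1% to 19.7% of a library in BF-EPA and 1.69% to 2.08% in SUB-EPA. The tissue labels match these markers. MiR-378a-3p held 18.67, the highest value of the table, in each brown library, so its part of the sum is nearly the same in each of them. Libraries stood apart in markers of other cells. Skeletal muscle miRNAs made up 6.29% of BF-EPA-4 and 5.12% of SUB-EPA-3 against 0.0526% to 0.429% of the other 4 (miR-1a-3p was at the floor in all 6). Epithelial miRNAs made up 1.62% of SUB-EPA-1 against 0.00883% to 0.0171% of the other 5. Results are therefore also given without these libraries. The subcutaneous markers miR-196a-5p and miR-10b-5p made up 0.484% to 0.654% of the brown and 3.95% to 5.17% of the subcutaneous libraries (2 of 2 called lower in brown fat). Markers of further cell types differed between the tissues. Leukocyte miRNAs made up 1.39% to 1.89% of the brown and 0.598% to 0.835% of the subcutaneous libraries (1 of 3 tested called higher in brown fat and 2 lower, miR-142-3p at the floor in all 6). Stromal miRNAs made up 0.677% to 0.736% and 3.04% to 3.40% (3 of 3 lower), and endothelial ones 0.134% to 0.158% and 0.412% to 0.524% (2 of 2 lower). The liver miRNA miR-122-5p made up 0.0016% to 0.0414% of the brown libraries and was at the floor in the subcutaneous ones. The part of these cells in the differences below was not tested.

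MiR-320-3p was the most abundant member in brown fat. Its log2 values were 13.56 in BF-EPA-3, 12.81 in BF-EPA-4 and 13.32 in BF-EPA-5, against 10.82 in SUB-EPA-1, 11.65 in SUB-EPA-3 and 11.34 in SUB-EPA-8. The groups did not overlap: the lowest brown value lay 1.16 above the highest subcutaneous one, more than the range within either tissue (0.75 in brown and 0.83 in subcutaneous fat). Among the 1251 arms it ranked between 33 and 41 in the brown libraries and between 59 and 75 in the subcutaneous ones. The mean of the brown libraries was 13.23 ± 0.38 (SD, n = 3) and that of the subcutaneous ones 11.27 ± 0.42. This is a log2 difference of 1.96 ± 0.29 (SE), or 3.89-fold higher in brown fat (limma adjusted p = 0.0014). In whole tissue, more cells that hold a miRNA and more of it per cell cannot be told apart.

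MiR-484 moved the same way with a smaller difference. Its log2 values were 12.25 in BF-EPA-3, 12.40 in BF-EPA-4 and 12.34 in BF-EPA-5, against 11.05 in SUB-EPA-1, 11.51 in SUB-EPA-3 and 11.10 in SUB-EPA-8. Here too the groups did not overlap, with a gap of 0.74, and the 3 brown values lay within 0.14 of each other while the subcutaneous ones spanned 0.46. It ranked 47 to 49 in the brown libraries and 61 to 71 in the subcutaneous ones. The mean of the brown libraries was 12.33 ± 0.07 (SD, n = 3) and that of the subcutaneous ones 11.22 ± 0.26, a log2 difference of 1.11 ± 0.17 (SE), or 2.16-fold higher in brown fat (limma adjusted p = 0.0018). When each library's linear trend of log2 value on GC content was removed, the difference was -0.46 ± 0.12 (SE), lower in brown fat (limma adjusted p = 0.017). The median of the 229 miRNAs in that fit was -0.27, and miR-484 lay at -0.19 from it.

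**Figure D1:**
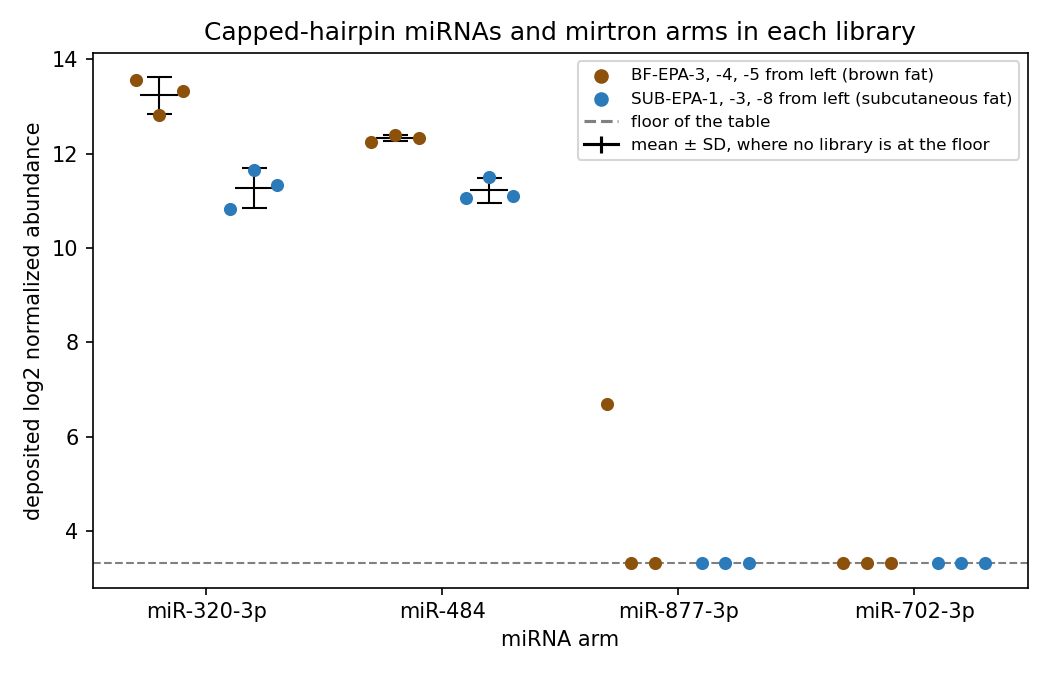
Deposited log2 normalized abundance (vertical axis) of the 4 member arms with a row, with 1 point per library and bars for the mean ± SD of 3 libraries where none is at the floor (dashed line, 3.32). MiR-320-3p and miR-484 sit above the subcutaneous libraries in all 3 brown libraries, miR-877-3p leaves the floor in BF-EPA-3, and miR-702-3p stays on it.

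These calls stood among many. Of 269 tested miRNAs, 69.1% were called at an adjusted p of 0.05, 33.5% as higher and 35.7% as lower in brown fat. All 3 brown values lay above the 3 subcutaneous ones in 33.8% and below them in 40.1%, so that the groups did not overlap in 74% in all. Both tested members, 2 of 2, were called higher without overlap, a count too small to set them apart from this background. The other 2 rows did not pass the filter on low values, and the median difference of the 2 that did was 1.54 beside -0.45 over all tested. Of all tested miRNAs, 65 had a larger difference toward brown fat than miR-320-3p and 90 a larger one than miR-484. Measured from the median of all tested miRNAs, the differences were 2.41 for miR-320-3p and 1.57 for miR-484. With median-of-ratios scaling, where the median of all tested was -0.04, the differences were 2.38 and 1.53.

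**Figure D2:**
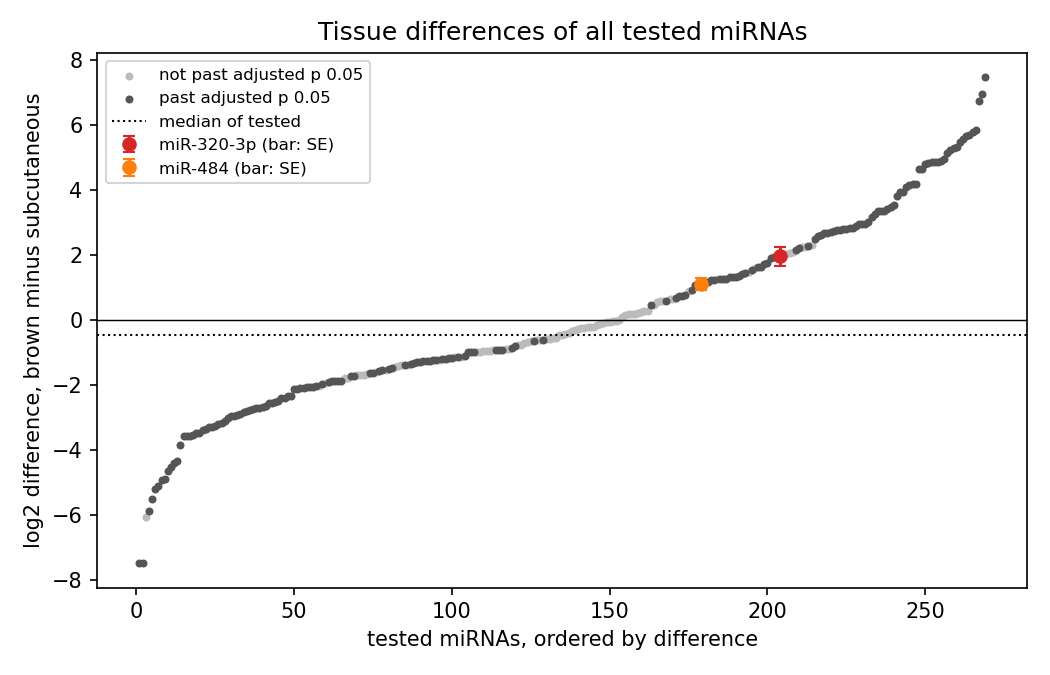
Log2 difference, brown minus subcutaneous (vertical axis), of the 269 tested miRNAs in order of their difference (horizontal axis), with those past an adjusted p of 0.05 in dark grey and the median of -0.45 as a dotted line. MiR-320-3p at 1.96 and miR-484 at 1.11, with SE bars, lie on the upper slope of the curve, below 65 and 90 other miRNAs.

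GC content moved with the tissue difference over the tested miRNAs with a mature sequence. Every library of a tissue shared the direction of its GC trend, so a difference in library preparation or RNA quality between the tissues cannot be told apart from a difference in the miRNAs themselves. This holds for every tissue difference given here, those of miR-320-3p and miR-664-3p included. Over these 229 miRNAs, the log2 value changed by 0.17 to 0.26 per 10 percentage points of GC in the brown libraries and by -1.22 to -0.91 in the subcutaneous ones. Of the 45 with a GC content of at least 60%, 27 were called higher in brown fat and 4 lower, with a median difference of 1.94; of the 81 between 40% and 50%, 11 were higher and 45 lower, with a median of -1.20. MiR-484 belongs to the former, and 25 of those 45 had a larger difference than its 1.11. Its difference thus lay below the middle of this group. The group runs up to 100% GC, and miR-484, at 63.6%, is near its lower end. The part of GC content in the difference of miR-484 was not tested beyond the removal of the trend. For miR-320-3p the GC setting was not run, since no mature sequence was used here.

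**Figure D3:**
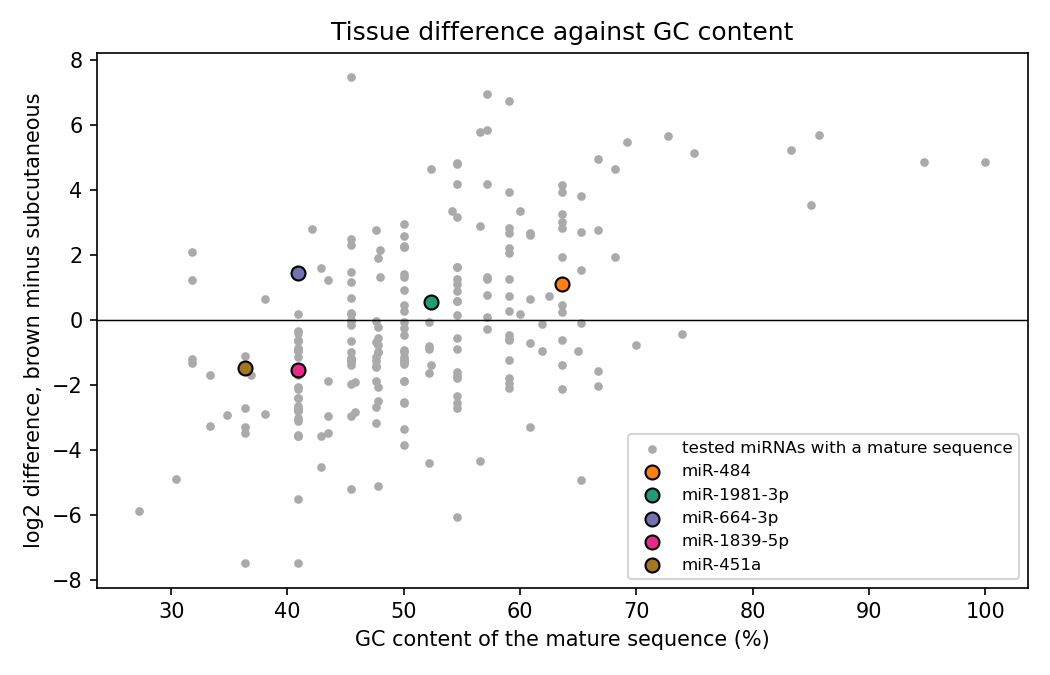
Log2 difference, brown minus subcutaneous (vertical axis), against the GC content of the mature sequence in percent (horizontal axis) for 229 tested miRNAs (grey). MiR-484 at 63.6% GC sits among GC-rich miRNAs most of which are higher in brown fat; miR-1839-5p and miR-664-3p share 40.9% GC and lie on opposite sides of 0.

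Of the muscle-rich libraries, BF-EPA-4 held the lowest brown value of miR-320-3p and SUB-EPA-3 the highest subcutaneous one. For miR-484 each of them held the highest value of its tissue. Without these 2 libraries the difference of miR-320-3p was 2.36 (limma adjusted p = 0.0055) and that of miR-484 was 1.22 (0.0045). SUB-EPA-1, the library high in epithelial miRNAs, held the lowest subcutaneous value of both. Without it the differences were 1.74 for miR-320-3p (limma adjusted p = 0.0048) and 1.03 for miR-484 (0.0056).

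The excess of miR-320-3p over miR-484 was larger in each brown library than in any subcutaneous one. In brown fat miR-320-3p exceeded miR-484 in all 3 libraries, by 1.31 in BF-EPA-3, 0.41 in BF-EPA-4 and 0.98 in BF-EPA-5 on the log2 scale. In subcutaneous fat miR-320-3p and miR-484 stood close together. MiR-320-3p lay 0.23 below miR-484 in SUB-EPA-1 (a difference of -0.23) and 0.14 and 0.24 above it in SUB-EPA-3 and SUB-EPA-8. The mean excess of miR-320-3p was 0.90 ± 0.45 (SD, n = 3) in the brown libraries and 0.05 ± 0.24 in the others. The tissues differed by 0.85 in this excess and did not overlap (exact two-sided permutation test, p = 0.10, the smallest that 3 against 3 can give). This is the gap between the tissue differences of miR-320-3p and miR-484 given above. The comparison was added after seeing the data. How often other pairs of miRNAs do not overlap in this way was not counted. The part of GC content in this excess was not tested, because no mature sequence of miR-320-3p was used. In subcutaneous fat the mean excess of miR-320-3p over miR-484, 0.05, was smaller than its SD of 0.24.

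Over the 6 libraries the log2 values of miR-320-3p and miR-484 had a Pearson r of 0.95. The tested miRNAs most like miR-320-3p were miR-30e-3p (r = 0.992), miR-30c-5p (0.987) and miR-378c (0.986). Those most like miR-484 were miR-1198-5p (r = 0.997), miR-351-5p (0.992) and miR-433-3p (0.992). These are descriptions of 6 points that fall into 2 tissues, so any miRNA with a steady tissue difference toward brown fat scores high. The sizes of the differences were not alike: miR-1198-5p differed by 1.11, as miR-484 did, whereas miR-433-3p differed by 4.80 with 2 subcutaneous libraries at the floor.

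The mirtron members were near the lower limit of the table. MiR-877-3p stood at 6.70 in BF-EPA-3 and at the floor of 3.32 in the other 5 libraries. It therefore did not pass the filter; when every miRNA above the floor somewhere was tested, its difference was 1.13 ± 0.97 (SE) with a limma adjusted p of 0.366. MiR-702-3p was at the floor in all 6. Of the other arms of the member hairpins, miR-320-5p, miR-702-5p and miR-1224-3p were also listed at the floor in all 6 libraries. For miR-320 the 3p arm was thus far above the floor in every library while the 5p arm was not above it in any. No member hairpin had rows for both arms above the floor, so arms were not compared; for miR-877 and miR-1224 the 5p arm was not analysed. A miRNA at the floor may still be present below what the table shows, at a depth that is unknown.

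Of 8 further names of mirtron arms, 5 had a row. MiR-1981-3p, from an intron of Marc2, which encodes a mitochondrial reductase (chromosome 1, 184822407 to 184822488, minus strand, 82 nt, 0 nt from either intron end), was the only one of the 5 above the floor in every library. It stood at 7.83, 8.19 and 7.75 in BF-EPA-3, BF-EPA-4 and BF-EPA-5 and at 6.93, 7.999 and 7.24 in SUB-EPA-1, SUB-EPA-3 and SUB-EPA-8. The groups overlapped, since SUB-EPA-3 lay above 2 of the brown libraries. The difference was 0.54 ± 0.35 (SE) and did not pass the test (limma adjusted p = 0.207). It passed without SUB-EPA-3 (0.85, limma adjusted p = 0.041) and with median-of-ratios scaling (0.96, limma adjusted p = 0.043). MiR-3102-3p, from an intron of Arhgef17, was above the floor in BF-EPA-5 (6.14), SUB-EPA-3 (6.08) and SUB-EPA-8 (5.53), with no call (-0.72 ± 1.09 SE, limma adjusted p = 0.574). The 3 others, miR-1982-5p and the second pair of miR-3102 arms, were at the floor in all 6. The table had 0 rows numbered from miR-6896 to miR-7094, a range of entries catalogued largely in searches for mirtrons.

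Small RNAs cut from snoRNA and tRNA transcripts take another way around Drosha. Of 4 rows, 2 were tested, with 1 called higher and 1 lower in brown fat, beside 33.5% and 35.7% of all tested miRNAs. The sequences of the 2 are shown, seeds in capitals, because they have the same length and GC content (22 nt, 40.9%) and opposite differences.
miR-664-3p: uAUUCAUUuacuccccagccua
miR-1839-5p: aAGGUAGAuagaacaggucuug
MiR-664-3p, whose hairpin overlaps the snoRNA gene Snora36b in an intron of Rab3gap2, stood at 9.42, 9.71 and 9.49 in BF-EPA-3, BF-EPA-4 and BF-EPA-5 and at 7.26, 8.18 and 8.79 in SUB-EPA-1, SUB-EPA-3 and SUB-EPA-8. All 3 brown values lay above the subcutaneous ones, which were the more widely spread. The difference was 1.46 ± 0.40 (SE), 2.75-fold higher in brown fat (limma adjusted p = 0.017). The call was lost without BF-EPA-3 (limma adjusted p = 0.0534), BF-EPA-4 (0.0668) or BF-EPA-5 (0.057), without both libraries numbered 3 (0.114) and without the 2 muscle-rich libraries (0.13), while the difference stayed between 1.37 and 1.57 in these settings.

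MiR-1839-5p, whose hairpin overlaps a small Cajal body RNA on chromosome 7, went the other way. It stood at 7.09, 7.22 and 6.94 in BF-EPA-3, BF-EPA-4 and BF-EPA-5 and at 8.65, 8.52 and 8.73 in SUB-EPA-1, SUB-EPA-3 and SUB-EPA-8, with no overlap. The difference was -1.55 ± 0.22 (SE), or 2.92-fold higher in subcutaneous fat (limma adjusted p = 0.0013), but -0.15 with the GC trend removed (limma adjusted p = 0.614), whereas that of miR-664-3p was then 2.85 (0.0016). Its other arm, miR-1839-3p, was at the floor in the 3 brown libraries and in SUB-EPA-1, and at 5.57 and 5.74 in SUB-EPA-3 and SUB-EPA-8. MiR-1983, from a tRNA transcript, was at the floor in brown fat and SUB-EPA-8, and at 6.34 and 5.32 in SUB-EPA-1 and SUB-EPA-3.

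**Figure D4:**
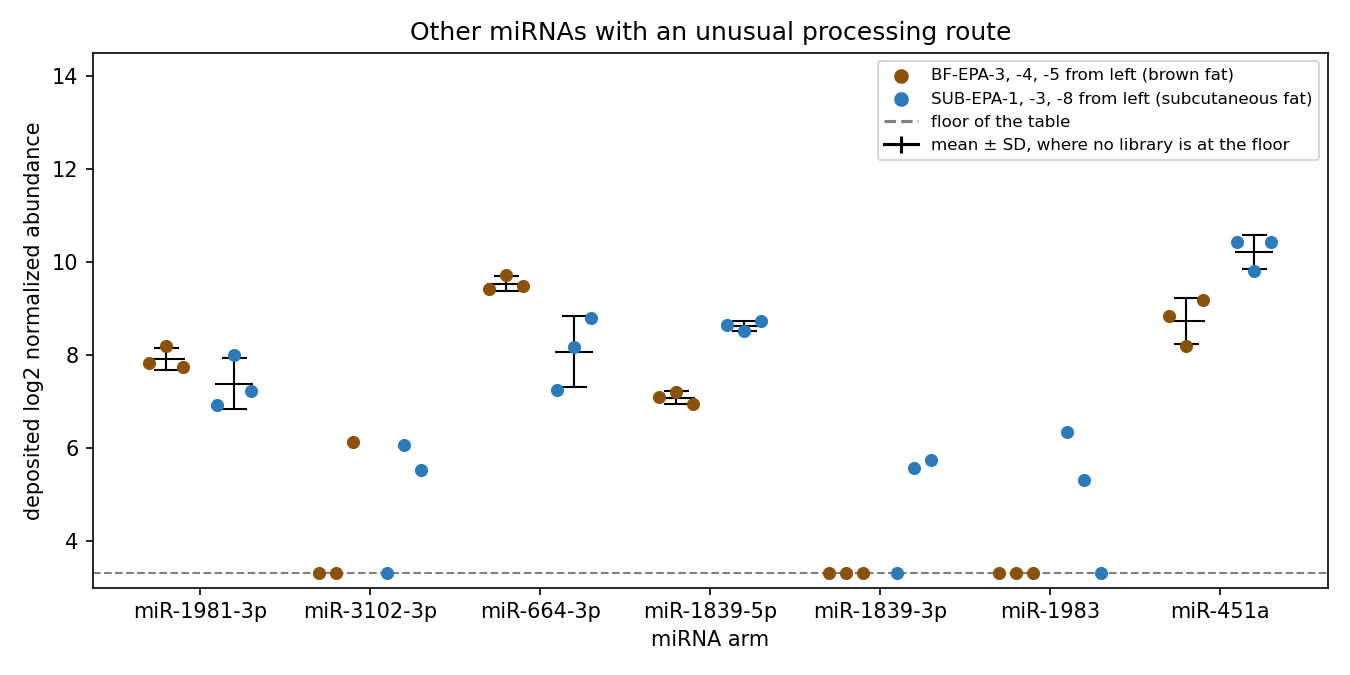
Deposited log2 normalized abundance (vertical axis) of mirtron, snoRNA, tRNA and Dicer-independent arms that are no members, with 1 point per library and bars for the mean ± SD of 3 libraries where none is at the floor (dashed line, 3.32). MiR-664-3p is higher in the 3 brown libraries, miR-1839-5p and miR-451a are lower in them, and miR-1981-3p overlaps between the tissues.

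MiR-451a is the mirror case, cut by Drosha but matured by Ago2 in place of Dicer, and it is abundant in red cells. It stood at 8.84, 8.19 and 9.18 in BF-EPA-3, BF-EPA-4 and BF-EPA-5 and at 10.43, 9.80 and 10.43 in SUB-EPA-1, SUB-EPA-3 and SUB-EPA-8. The groups did not overlap, and the difference was -1.49 ± 0.33 (SE; limma adjusted p = 0.0066), turning to 0.50 with the GC trend removed (limma adjusted p = 0.145). Of the other red cell markers, miR-144-3p was at the floor in all 6, and the summed level of the list, mostly miR-486-5p, was 8.72% to 8.73% of a library in brown and 0.811% to 1.51% in subcutaneous fat. The part of red cells in these values was not tested.

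**Figure D5:**
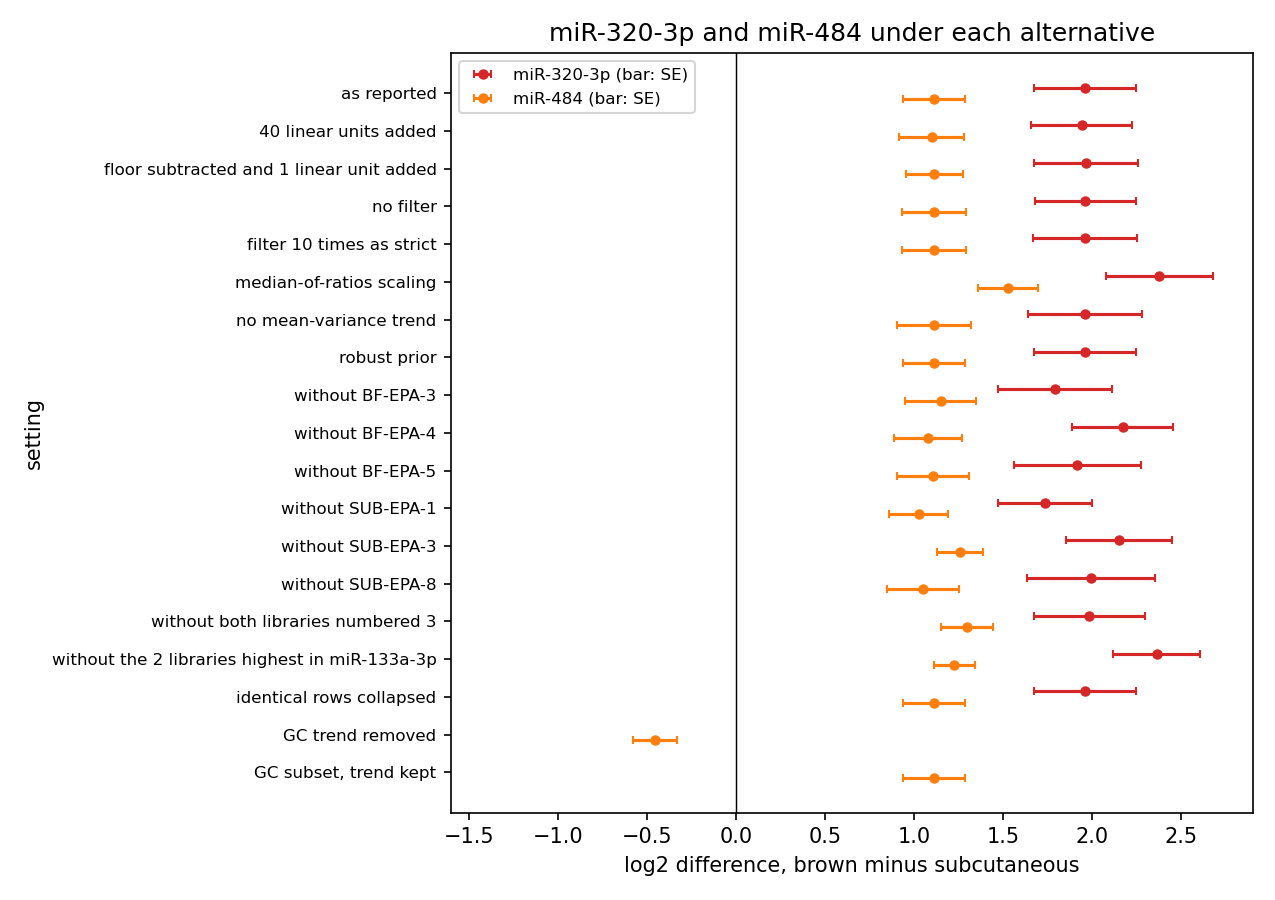
Log2 difference, brown minus subcutaneous (horizontal axis, SE bars), of miR-320-3p and miR-484 as reported and under each alternative (vertical axis). MiR-320-3p stays between 1.74 and 2.38, but the GC settings were not run for it. MiR-484 stays between 1.03 and 1.53 except with the GC trend removed, where it is -0.46.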

How the data were processed

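Small RNA libraries of brown and subcutaneous fat (3 each, frozen after a fast of 4 hours) were used. Per the series' design text, the authors mapped reads to mouse build mm10, about 13.8 M per sample, scaled counts of each unique read to total usable reads and added 40 counts. The aligner, trimming and miRNA annotation were not given in the sources used here. Deposited by the authors were log2 abundances of 1251 arms, from a floor of 3.32 (10 linear units, held by 910 arms in all 6 libraries) to 18.67. Of the top 100 ranks, 64.0% held 1 value in all libraries (within 1e-06), so depth is unknown and differences are relative to the library. The described scaling and 40 added counts do not by themselves give these shared values or a floor of 10 linear units. How they arose is not known here.

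Brown minus subcutaneous differences were fitted with limma 3.58.1 (R 4.3.3), with a mean-variance trend, over 269 arms whose mean above the floor was at least 10 ppm of the mean library total (24.0 linear units), with Benjamini-Hochberg adjustment at 0.05. The fit was also run on simulated data, drawn as independent normal values. These held no floor, no values shared between libraries and no GC trend that differs between tissues. That run therefore cannot tell how the fit behaves with such features. Where all libraries of a tissue hold 1 value, the SE can be too small. The excess of miR-320-3p over miR-484 was compared between the tissues with an exact permutation test (scipy 1.17.1). Shares of a library are linear values above the floor over their sum. GC content came from RefSeq mature sequences matched by name (229 of the tested arms, 85.1%), and gene positions from GENCODE M21. Named were all members, every row above the floor in the lists of other processing routes, and for each tested member the 3 arms with the highest Pearson r; cell type markers are given by their summed share. Members and lists were chosen with earlier results of these data known. Alternatives were other offsets, filters, scaling, variance models, collapsed identical rows, GC trend removal and leaving out libraries; the excess of miR-320-3p over miR-484 and the fit on arms with a sequence were added after seeing the data.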

Additional observations from a re-analysis of the deposited data

How the results depend on the processing

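MiR-320-3p was called higher in brown fat under all 16 alternatives run for it (differences 1.74 to 2.38, limma adjusted p 0.00064 to 0.015). GC trend removal, the setting that reversed miR-484, was not among them. Other filters, other variance models and collapsed rows leave the difference of an arm unchanged and act only on its SE and p. MiR-484 was called higher under 17 of 18 (1.03 to 1.53 in the 16 outside the GC settings) and reversed to -0.46 with the GC trend removed; that setting differs from the fit on the same 229 arms, 1.11, by the trend alone. MiR-451a turned to 0.50 in that setting, and miR-3102-3p, without a call in any, turned to 0.30 without both libraries numbered 3 and without the 2 muscle-rich libraries. Calls numbered 90 higher and 96 lower (48.4% of them higher), and 103 and 82 (55.7%) with median-of-ratios scaling. The filter 10 times as strict left 157 arms and 58 higher calls, with 69 lower; leaving out 1 library gave 75 to 91 higher and 90 to 97 lower. The excess of miR-320-3p over miR-484 differed between the tissues by 0.64 to 1.09 without any 1 library. No paired analysis was possible because the groups share only the replicate number 3. Read depth is unknown, which limits what can be said of arms at the floor.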
